A study of Homo sapiens with 20 samples.

Results

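The replication-dependent histone genes were taken as the genes whose symbols belong to the H1-1 to H1-6, H2AC, H2BC, H3C or H4C series and which held at least 20 counts summed over the 20 libraries. Of 66 symbols of this form, 65 met the minimum, out of 60719 genes in the table. H4C7, with 4 counts, was left out. The large cluster on chromosome 6 held 54 of the 65 genes and the small clusters on chromosome 1 held 11. RNA sequencing was performed on WT Jurkat T lymphoblasts, an established human T cell leukemia line, and on JinB8, a somatic mutant of Jurkat that is deficient in CD47 and is called CD47- below. JinB8 is a single mutant line, so its differences from WT cannot be assigned to CD47 alone. Each line was sampled 1 h, 3 h and 6 h after plating on immobilized antibodies to CD3 and CD28 (CD3+CD28), after the same plating with 1 µg/mL of soluble thrombospondin-1, a secreted CD47 ligand (CD3+CD28+TSP1), and after TSP1 alone, and an untreated library was made at 1 h. That gave 10 libraries per line and 1 library per condition, all from cells in serum-free HITES medium. The paper describes cells plated for each treatment and time. No source says that the plates came from independently grown cultures, so the p-values measure only the spread between these libraries.

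Replication-dependent histone genes encode the linker histone H1 and the core histones H2A, H2B, H3 and H4 that package newly made DNA, and most of their mRNA is made in S phase. Their mRNAs lack introns and, in dividing cells, end in a conserved stem-loop in place of a poly(A) tail. The stem-loop is bound by SLBP, and NPAT, FLASH (CASP8AP2) and the U7 small nuclear ribonucleoprotein act in histone gene transcription and in cutting of the mRNA end. These genes are known for abrupt falls in mRNA when DNA synthesis stops, and in bulk RNA fewer cells in S phase and less mRNA per cell cannot be told apart.

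The mRNA end that distinguishes these genes from other protein-coding genes was looked for in the GRCh38 genome. A stem of 6 base pairs with a loop of 4 bases lay within 150 bases after the stop codon in 65 of 65 genes, 22 to 67 bases after it with a median of 35. It took 10 forms. The form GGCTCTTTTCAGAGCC was in 38 genes, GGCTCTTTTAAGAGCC in 9, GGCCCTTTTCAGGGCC in 8 and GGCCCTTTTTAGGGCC in 4, and 6 forms occurred once each. All 13 H4 genes had a stem beginning GGCCC, and no gene of the other classes did. The stem-loops of 7 genes on which the results below turn are shown with 5 flanking bases on each side, 5′ to 3′ along the mRNA, with stem and loop in capitals. H2BC3 and H3C3 differed most between the lines, H2BC14 and H3C12 had small p-values over time, and H1-6, H4C4 and H4C5 changed differently over time in the 2 lines. In GRCh38 the capitals lie, for H2BC3 at chr6:26043232-26043247 (minus strand), H3C3 at chr6:26045849-26045864 (plus strand), H2BC14 at chr6:27815469-27815484 (plus strand), H3C12 at chr6:27890320-27890335 (minus strand), H1-6 at chr6:26107417-26107432 (minus strand), H4C4 at chr6:26188715-26188730 (minus strand), H4C5 at chr6:26205001-26205016 (plus strand).
H2BC3: ccaaaGGCTCTTTTCAGAGCCaccta
H3C3: gaaaaGGCTCTTTTCAGAGCCactca
H2BC14: ccaaaGGCTCTTTTCAGAGCCgtcca
H3C12: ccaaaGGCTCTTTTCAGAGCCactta
H1-6: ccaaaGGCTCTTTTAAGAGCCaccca
H4C4: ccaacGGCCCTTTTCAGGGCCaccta
H4C5: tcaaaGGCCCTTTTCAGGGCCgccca

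H2BC3 and H3C3 share the common stem and loop with H2BC14 and H3C12, and H1-6 differs from these in the loop. Promoters were compared in the same way, as the 250 bases before each gene's start in RefSeq's GRCh38.p14 annotation, which matched 60 of the 65 genes. On either strand, the octamer ATTTGCAT, the known site of Oct factors in H2B promoters, was in 26 of 60 histone promoters, or 43.3%, and in 1.6% of all 35116 promoters of this length. It was in 14 of 17 H2B and 11 of 15 H2A promoters, in 1 of 11 H3 promoters, and in none of the H1 and H4 promoters. The letters CCAAT, on either strand as for each motif here, were in 86.7% of histone promoters and 32% of all, and in 3 of 11 H4 promoters. TATAAA was in 66.7% and 10.7%. The promoters below belong to H2BC3 and H3C3, whose counts were near 0 in CD47- cells, and to their neighbors on each side, H2AC4 and H1-2. Capitals mark the octamer and CCAAT on either strand. In GRCh38.p14 they lie, for H2AC4 at chr6:26033619-26033868 (minus strand), H2BC3 at chr6:26043714-26043963 (minus strand), H3C3 at chr6:26045134-26045383 (plus strand), H1-2 at chr6:26056471-26056720 (minus strand).
H2AC4: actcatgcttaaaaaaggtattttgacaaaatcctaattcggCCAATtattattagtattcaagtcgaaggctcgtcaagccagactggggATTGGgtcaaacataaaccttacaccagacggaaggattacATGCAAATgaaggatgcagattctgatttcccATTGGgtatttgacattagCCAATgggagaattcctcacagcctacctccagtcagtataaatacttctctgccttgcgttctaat
H2BC3: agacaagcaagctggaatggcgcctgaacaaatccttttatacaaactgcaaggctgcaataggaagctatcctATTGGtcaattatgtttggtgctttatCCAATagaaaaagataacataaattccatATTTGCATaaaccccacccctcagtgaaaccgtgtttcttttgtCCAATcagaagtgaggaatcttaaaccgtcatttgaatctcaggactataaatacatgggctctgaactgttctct
H3C3: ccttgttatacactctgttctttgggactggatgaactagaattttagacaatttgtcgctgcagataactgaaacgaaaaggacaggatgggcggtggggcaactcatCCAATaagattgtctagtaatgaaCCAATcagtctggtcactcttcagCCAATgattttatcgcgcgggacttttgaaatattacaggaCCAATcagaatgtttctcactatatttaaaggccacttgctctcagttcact
H1-2: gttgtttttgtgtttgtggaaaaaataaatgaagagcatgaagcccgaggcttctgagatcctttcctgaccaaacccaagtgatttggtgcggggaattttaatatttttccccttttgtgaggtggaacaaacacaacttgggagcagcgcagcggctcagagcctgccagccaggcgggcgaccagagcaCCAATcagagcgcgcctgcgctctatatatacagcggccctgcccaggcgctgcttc

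H2BC3 and H3C3 are transcribed away from each other, with 1670 bases between the genes. A match of letters is a description of the reference sequence and not of these cell lines, whose DNA was not analysed here.

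The WT libraries totalled 20483642 to 31737616 counts and the CD47- libraries 16107921 to 28525524, so that 3 counts in a library equal 0.0979 to 0.1556 counts per 1000000 (CPM). CD47 itself was at 253 to 372 CPM in WT and 124 to 165 CPM in CD47- libraries. The T cell marker CD3D was at 231 to 532 CPM in the 20 libraries. Of 11 markers tested, CD3E, CD3G, CD5 and CD7 were higher and PTPRC, TRBC1 and TRAC lower in CD47- cells, TRAC with a log2 difference of -3.08 (adjusted p = 4.57e-12, edgeR). The B cell, myeloid and epithelial markers MS4A1, CD14, LYZ and EPCAM were at or below 1.09 CPM. Although the labels name an mRNA kit, the non-polyadenylated RN7SK was at 20750 to 55619 CPM, and how much of each library was read from RNA without a tail was not tested.

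Histone genes took 0.851% to 2.79% of the counts of a library. The summed level of the 65 genes was lower in CD47- than in WT cells for each of the 9 treated conditions, and in both lines it was highest at 3 h. At 1 h, the WT libraries held 11578 CPM with CD3+CD28, 17261 with CD3+CD28+TSP1, 15874 with TSP1 and 12009 without treatment. The CD47- libraries held 9577, 10764, 8360 and 12995 CPM in the same order. At 3 h, the treated WT libraries held 26477, 22889 and 26840 CPM and the CD47- libraries 22262, 15824 and 18398 CPM. At 6 h, the values were 18114, 20301 and 19644 CPM in WT and 14699, 14223 and 15173 CPM in CD47- cells. Within each line all 3 h libraries lay above all 1 h and 6 h libraries. At 6 h the WT libraries did not overlap the CD47- libraries. The untreated pair was the exception to the order of the lines.

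**Figure D1:**
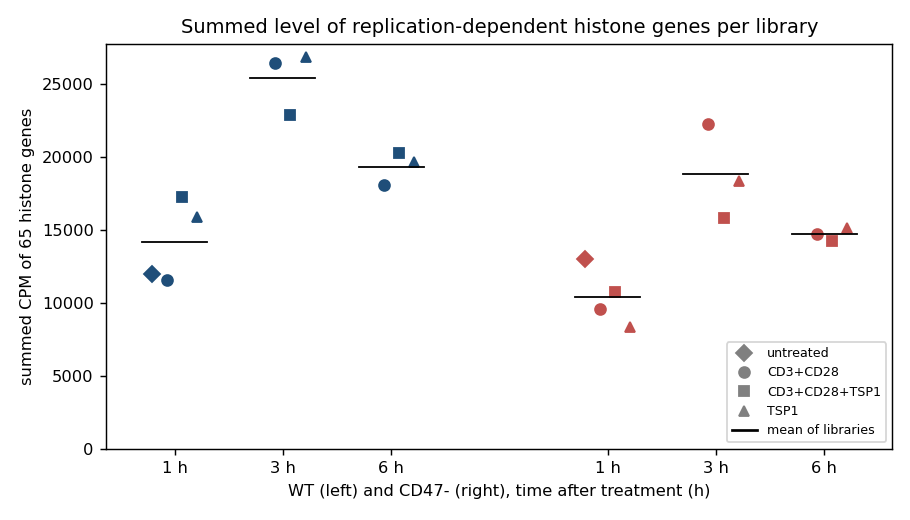
Summed CPM of the 65 histone genes in each of the 20 libraries against hours after plating, by line and treatment. The WT libraries at 3 h lie between 22889 and 26840 CPM and the CD47- libraries between 15824 and 22262 CPM.

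Per length of its main transcript, the highest mean levels over the 20 libraries were those of H3C2 (1332 CPM per kb), followed by H4C14 (1317), H4C3 (1303), H2BC4 (1297) and H1-5 (1282). These 5 belong to 4 classes. The order differed by line, with H2BC4 highest in WT (1570 CPM per kb) and H1-5 in CD47- cells (1209). The 8 genes with most reads, H1-5, H1-2, H3C2, H1-3, H2BC4, H1-4, H2AC11 and H4C3, together held 32% of the histone CPM. At the other end, H1-1, with 60 counts in the 20 libraries, H2AC1, with 118, and H3C6, with 49, did not pass the filter on low counts. The other 62 genes were tested, 51 of the large and 11 of the small clusters. H1-1 and H1-6, a testis variant of the linker histone, were the rarest of the 6 H1 genes, and H1-5 had the highest mean CPM per kb of them.

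The first comparison asked which histone genes differed between the lines over all conditions. Lower levels in CD47- cells were called for 26 of 62 histone genes and a higher level for 1, H1-6, by edgeR's quasi-likelihood test at an adjusted p of 0.05. Of all 16327 genes tested, 20.6% were called lower and 19.8% higher. The median log2 difference of the histone genes was -0.42, against -0.0066 over all genes, and 61 of 62 fitted differences were below 0. Among the large cluster genes 20 of 51 were called lower (median -0.38), and among the small cluster genes 6 of 11 (median -0.57). By class, H2B had the most genes called lower, 10 of 17, followed by H2A with 7 of 15, H3 with 5 of 12, H4 with 3 of 13 and H1 with 1 of 5. With treatment and time matched as 10 pairs (a replicate block), 46 histone genes were called, 45 of them lower, where 27.6% of all genes were called lower and 27.2% higher. The 6 pairs with CD3+CD28 (activated) alone gave 16 genes and the 4 unactivated pairs alone gave 7, all of them lower. Shares of all genes called in these smaller sets were not computed, so the 16 and 7 are not set against a background.

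H3C3 and H2BC3, which encode an H3 and an H2B protein, were near 0 in CD47- cells and not in WT cells. H3C3 was at 119, 189, 158 and 118 CPM in the WT libraries at 1 h (CD3+CD28, CD3+CD28+TSP1, TSP1 and untreated), at 269, 235 and 253 CPM at 3 h and at 164, 170 and 163 CPM at 6 h. In the 10 CD47- libraries it was between 0.245 and 0.83 CPM. H2BC3 was at 67.2 to 203 CPM in WT libraries and at 0.285 to 0.872 CPM in CD47- libraries. The lines did not overlap in any condition for either gene. Summed over 10 libraries, H3C3 had 43154 counts in WT and 103 in CD47- cells, and H2BC3 had 29639 and 125. The log2 difference was -8.72 (SE 0.234) for H3C3, a 422-fold lower level, with an adjusted p of 4.38e-18 by edgeR. For H2BC3 it was -7.90 (SE 0.31), a 238-fold lower level, with an adjusted p of 4.08e-15. In both transcripts 0% of the windows of 125 bases, the length of 1 read, were shared with another gene. H2AC5P, a pseudogene between them, had 155 counts in WT and 2 in CD47- cells.

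The genes on each side of this pair were lower in CD47- cells by far less. H2AC4, an H2A gene 9608 bases from H2BC3, was at 66.8, 128, 111 and 68.4 CPM at 1 h, 206, 154 and 240 CPM at 3 h and 122, 148 and 144 CPM at 6 h in WT cells. In CD47- cells it was at 31.6, 39.4, 30.2 and 52.9 CPM at 1 h, 129, 88.2 and 91.4 CPM at 3 h and 64.0, 56.9 and 58.7 CPM at 6 h. The lines did not overlap at any of the 3 times, and the log2 difference was -1.11 (SE 0.261, adjusted p = 0.00154, edgeR). H1-2, a major somatic linker histone 9870 bases beyond H3C3, was at 687 to 1278 CPM in WT and 438 to 818 CPM in CD47- libraries. Its log2 difference was -0.78 (SE 0.136, adjusted p = 7.35e-05, edgeR). H3C2, 992 bases from H2AC4 on the other side, did not pass over all conditions (-0.36, adjusted p = 0.0571, edgeR). Over the treated conditions it was lower at 1 h (-0.55, adjusted p = 0.0146, edgeR) and at 6 h (-0.56, adjusted p = 0.0118). At 1 h the lines overlapped, with 470, 793, 739 and 492 CPM in WT and 446, 509, 398 and 677 CPM in CD47- cells, and the untreated pair, given last, was in the other order. At 6 h they did not, with 751 to 843 CPM in WT and 541 to 547 CPM in CD47- cells.

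**Figure D2:**
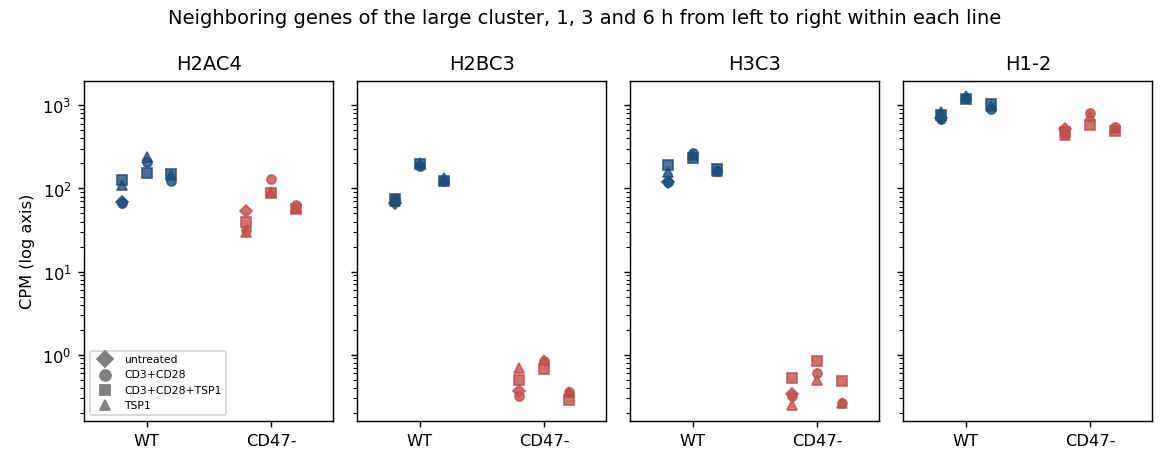
CPM of H2BC3, H3C3 and their neighbors in each library by line, on a log axis, with a point for each library, shaped by treatment, and times of 1 h, 3 h and 6 h from left to right within a line. H2BC3 and H3C3 lie below 1 CPM in all 10 CD47- libraries and at 67.2 CPM or more in WT libraries, while the CD47- points of H2AC4 and H1-2 lie at 30.2 CPM or more.

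Elsewhere in the large cluster no fall was as large. H2BC1, a testis H2B, had the next largest fall (log2 difference -1.58, adjusted p = 0.0106, edgeR), at 0.301 to 2.88 CPM in WT and 0.0337 to 1.36 CPM in CD47- libraries. H2AC16 fell from 51.3 to 188 CPM in WT libraries to 17.7 to 96.8 CPM in CD47- libraries (log2 difference -1.27, adjusted p = 0.00107, edgeR). The divergent genes H2BC8 and H2AC8, which start 232 bases apart, had log2 differences of -1.16 (adjusted p = 0.00239, edgeR) and -1.14 (adjusted p = 0.00129). H2BC8 was at 19.6 to 66.1 CPM in WT and 8.07 to 28.5 CPM in CD47- libraries, and H2AC8 at 24.1 to 75.3 CPM and 9.7 to 36.9 CPM. For both genes all CD47- libraries of a time lay below all WT libraries of that time. H4C6 was the H4 gene that fell most (log2 difference -0.94, adjusted p = 7.45e-06, edgeR), from 204 to 408 CPM in WT libraries to 108 to 211 CPM in CD47- libraries.

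**Figure D3:**
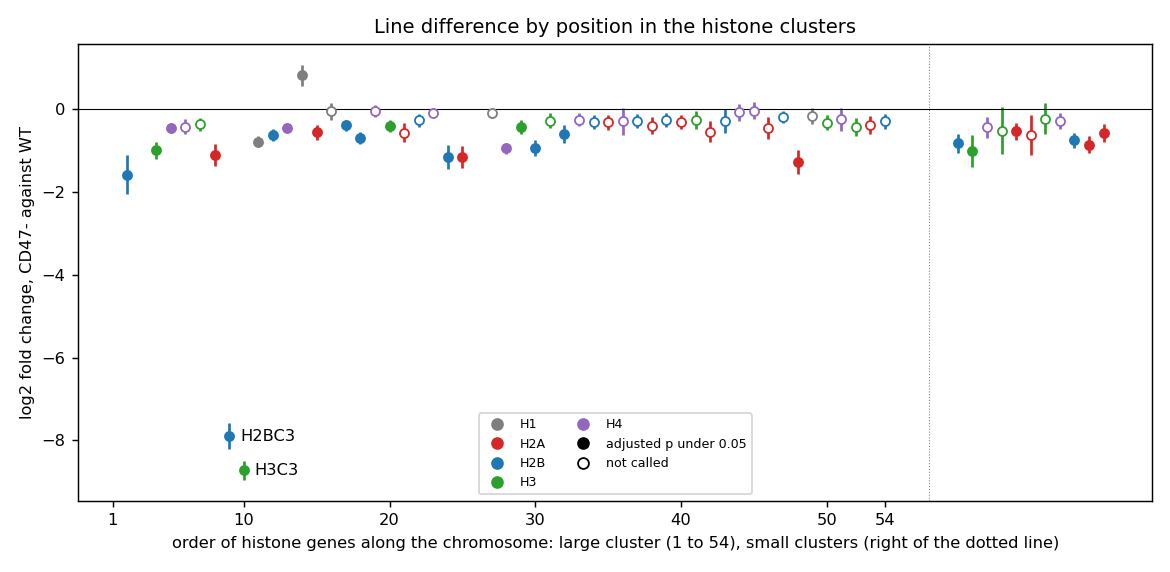
Log2 difference between CD47- and WT cells (CD47- minus WT) for each tested histone gene in its order along the large and small clusters. Bars are standard errors, filled points were called and colors give the class. H3C3 (-8.72) and H2BC3 (-7.90) stand apart, and the other genes lie between -1.58 and 0.82.

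In the small clusters the genes called lower were H3C13 (log2 difference -1.01, adjusted p = 0.0411, edgeR), H2AC20 (-0.86), H2BC18 (-0.82), H2BC21 (-0.75), H2AC21 (-0.57) and H2AC18 (-0.53). Summed with H2AC19, a copy with the same coding sequence, H2AC18 was not called (-0.57, adjusted p = 0.107, edgeR). H2AC20 was at 136 to 331 CPM in WT and 66.7 to 244 CPM in CD47- libraries, and H2BC21 at 182 to 433 CPM and 102 to 300 CPM. The small clusters' share of histone CPM differed by -2.13 percentage points on average (CD47- minus WT). It was 13.4% to 19.1% in WT and 10.1% to 19.2% in CD47- libraries, so the lines overlapped.

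Of the 5 H1 genes tested, 1 was lower, 1 was higher and 3 were not called, where 20.6% of all genes were called lower and 19.8% higher. H1-5 was at 594 to 1516 CPM in WT and 575 to 1399 CPM in CD47- libraries (log2 difference -0.17, adjusted p = 0.507, edgeR). H1-3 was at 501 to 832 CPM and 478 to 873 CPM (log2 difference -0.09, adjusted p = 0.597). H1-4 was at 279 to 783 CPM and 242 to 818 CPM (log2 difference -0.04, adjusted p = 0.888). H1-2, described above, was the exception among the abundant H1 genes, and whether the classes differ was not tested. H1-6 was at 0.491 to 2.85 CPM in WT and 2.07 to 5.56 CPM in CD47- libraries, with a log2 difference of 0.82 (SE 0.256, adjusted p = 0.0133, edgeR). It missed the threshold in the 6 activated pairs, in the 4 unactivated pairs and without CD3+CD28 libraries. At 1 h the lines did not overlap for H1-6, with 0.491 to 1.61 CPM in WT and 2.47 to 3.16 CPM in CD47- cells, and at 6 h they did. The annotated span of H2BC4 contains H1-6 on the same strand and H4C3 on the other, and the strand setting of the counting is not given in the sources used here, so reads in these genes cannot be assigned with certainty.

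Taken at each time, the line difference was called for most genes at 1 h and for fewer at 6 h. At 1 h, 46 of 62 genes were lower and 2 higher in CD47- cells (H1-6, by 1.52 on the log2 scale, and H4C4, by 0.32), where 20.8% and 22.2% of all genes were called lower and higher by edgeR. At 3 h, 38 were lower and 1 higher (all genes 23.2% and 23.3%). At 6 h, 28 were lower and none higher (all genes 24.5% and 22.8%). The 6 h count was 17 without the WT CD3+CD28 library and 18 without the CD47- CD3+CD28 library of that time. The median log2 differences at the 3 times were -0.77, -0.48 and -0.33. These differences are over the 3 treated conditions of a time, and the untreated pair has no part in them. At 1 h all 15 H2A and all 12 H3 genes tested were lower, against 5 of 13 H4 genes, and at 3 h all 17 H2B genes tested were lower. In the untreated pair of 1 h the order was the other way, with 2611 CPM of H2A genes in CD47- and 2499 CPM in WT cells, and 2276 and 2013 CPM of H3 genes. Without treatment terms, which brings that pair in, 38 genes were lower and 2 higher at 1 h. Shares of all genes were not computed for that fit or for the fits that left out 1 library. In the small clusters 10 of 11 genes were lower at 1 h (median -1.21), 6 of 11 at 3 h (-0.605) and 7 of 11 at 6 h (-0.775). Some of these calls rest on how reads were divided between copies with the same coding sequence. H2AC18 at 3 h, and H2AC19 and H3C14 at 6 h, were called lower. Their sums with H2AC19, H2AC18 and H3C15 were not (adjusted p = 0.176, 0.0722 and 0.333, edgeR). At all 3 times 19 of 62 histone genes were called lower, against 11.4% of all genes.

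The second comparison asked how histone genes changed with time after plating, from libraries matched in treatment. At 3 h against 1 h in WT cells, 57 of 62 histone genes rose and none fell, by edgeR's test, where 16.9% of all genes were called higher and 17.4% lower. The median log2 change was 0.82, against 0.0032 over all genes. In CD47- cells 52 rose and none fell, with a median of 1.10, where 18% of all genes were called higher and 20.1% lower. In both lines 49 of 62 histone genes rose, against 9.03% of all genes. The rise covered both clusters, with 49 of 51 large and 8 of 11 small cluster genes in WT and 42 of 51 and 10 of 11 in CD47- cells. No untreated library was made at 3 h or 6 h, so a change with plating time cannot be told apart from a change with treatment.

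H2BC14 had among the smallest p-values in each contrast with time. It was at 40.6, 46.6, 39.8 and 32.9 CPM at 1 h, at 128, 135 and 128 CPM at 3 h and at 86.3, 87.1 and 84.4 CPM at 6 h in WT cells. In CD47- cells it was at 34.4, 40.4, 30.1 and 37.6 CPM at 1 h, at 103, 73.8 and 100 CPM at 3 h and at 86.7, 81.3 and 75.8 CPM at 6 h. In both lines the 1 h libraries lay below all later ones. The log2 change at 3 h was 1.62 in WT (SE 0.119, adjusted p = 5.32e-07, edgeR) and 1.40 in CD47- cells (SE 0.12, adjusted p = 2.97e-06). H2BC8 rose with similar values, by 1.54 on the log2 scale in WT and 1.49 in CD47- cells.

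H2BC3, which was near 0 in CD47- cells, rose in WT cells with the smallest p of the histone genes. It was at 74.8, 74.2, 71.6 and 67.2 CPM at 1 h, at 187, 197 and 203 CPM at 3 h and at 122, 124 and 135 CPM at 6 h. The log2 change was 1.41 at 3 h (SE 0.0728, adjusted p = 3.1e-08, edgeR) and 0.79 at 6 h (SE 0.0722, adjusted p = 9.03e-07). In CD47- cells 7 to 21 counts per library were behind each value, and neither contrast passed.

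Among H1 genes, H1-5 rose at 3 h by 0.99 on the log2 scale in WT (adjusted p = 4.44e-05, edgeR) and by 0.89 in CD47- cells (adjusted p = 0.000114). It went from 594 to 775 CPM at 1 h to 1320 to 1516 CPM at 3 h in WT cells, and from 575 to 777 CPM to 1025 to 1399 CPM in CD47- cells. H1-2, H1-3, H1-4 and H1-6 also rose at 3 h in both lines, so that all 5 H1 genes tested rose. In CD47- cells 7 of 13 H4 genes rose at 3 h, and all 15 H2A genes. In H4C1, H4C3, H4C4, H4C5 and H4C8, which were not called, the CD3+CD28+TSP1 library was the lowest of the 3 at 3 h, with 306 CPM of H4C5 against 466 and 460 CPM. It was also the lowest for genes that were called, such as H1-3 (604 against 873 and 864 CPM) and H2BC10 (248 against 363 and 337 CPM). For others, such as H3C13, it was not (92.3 against 129 and 68.4 CPM). That library had the lowest total of the 20 libraries, 16107921 counts, and the highest scaling factor, 1.2. Without that library 57 histone genes rose at 3 h in CD47- cells instead of 52. The genes not called at 3 h were H2AC19, H2BC6, H3C11, H3C14 and H4C15 in WT, and H2BC3, H2BC6, H2BC15, H3C3, H4C1, H4C3, H4C4, H4C5, H4C8 and H4C15 in CD47- cells.

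At 6 h the fitted levels were below those of 3 h for most genes. In WT cells 23 genes were higher and 1 lower at 6 h than at 1 h, where 25.7% of all genes were called higher and 24.8% lower by edgeR. The median log2 change was 0.34. The count called either way, 24, was 15 without the WT CD3+CD28 library at 1 h. It was 40 with no low-count filter, 48 with 1 time effect for both lines and 43 without CD3+CD28+TSP1 libraries. How many of all genes were called in these other fits was not computed, so their counts are not set against a background. In CD47- cells 47 genes were higher and none lower (all genes 26% and 27%), with a median of 0.67. The fitted change was larger at 3 h than at 6 h for 58 of 62 genes in WT and 56 of 62 in CD47- cells. The gene that was lower at 6 h in WT, H2BC11, was at 244 to 330 CPM at 1 h, 467 to 491 CPM at 3 h and 227 to 246 CPM at 6 h (log2 change -0.33, adjusted p = 0.0139, edgeR). All 5 H1 genes tested were higher at 6 h in WT, against 9 of 17 H2B, 5 of 13 H4, 3 of 15 H2A and 1 of 12 H3 genes. In CD47- cells 14 of 15 H2A, 13 of 17 H2B, 9 of 12 H3, 8 of 13 H4 and 3 of 5 H1 genes were higher. A difference between the lines by class was not tested.

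**Figure D4:**
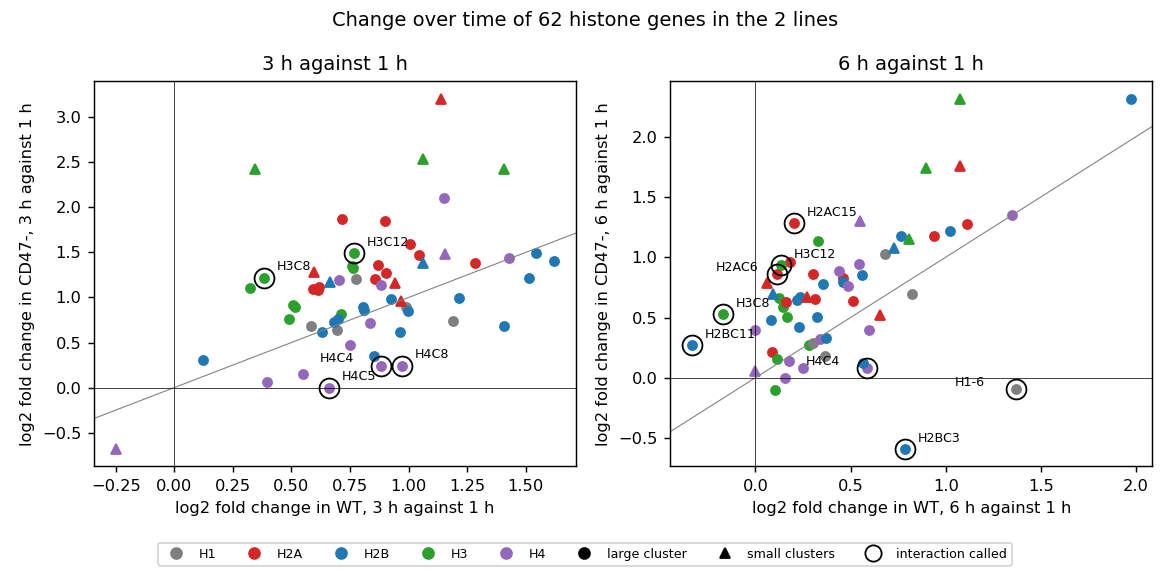
Log2 change at 3 h and 6 h against 1 h in CD47- cells, against the same change in WT cells, with a point for each tested histone gene, colored by class and shaped by cluster, and a ring where the interaction was called. The diagonal marks equal change. Most points lie above 0 on both axes, with 57 genes called higher at 3 h in WT and 52 in CD47- cells.

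The small clusters took a larger share of histone CPM at 6 h than at 1 h, by 2.69 percentage points in WT and 4.39 points in CD47- cells on average over the libraries of each time. At 1 h in WT the shares were 13.4%, 17.8% and 16.7% for the treated libraries and 14.5% for the untreated one. In CD47- cells they were 11.5%, 12.5%, 10.1% and 13.9%. At 3 h the shares were 19.1%, 16.9% and 18.7% in WT and 18.7%, 19.2% and 15.5% in CD47- cells, and they overlapped those of 6 h in both lines. At 6 h they were 17.5%, 18.5% and 18.8% in WT and 15.7%, 16.9% and 16.5% in CD47- cells. The 1 h and 6 h libraries overlapped in WT and did not in CD47- cells. The median log2 change of the small cluster genes at 3 h was 0.97 in WT and 1.39 in CD47- cells, against 0.81 and 0.98 for the large cluster, and that of H4C15 was below 0 in both lines. In CD47- cells H3C13 rose by 2.54 on the log2 scale (SE 0.393, adjusted p = 0.000253, edgeR) and in WT cells by 1.06 (SE 0.373, adjusted p = 0.0408).

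**Figure D5:**
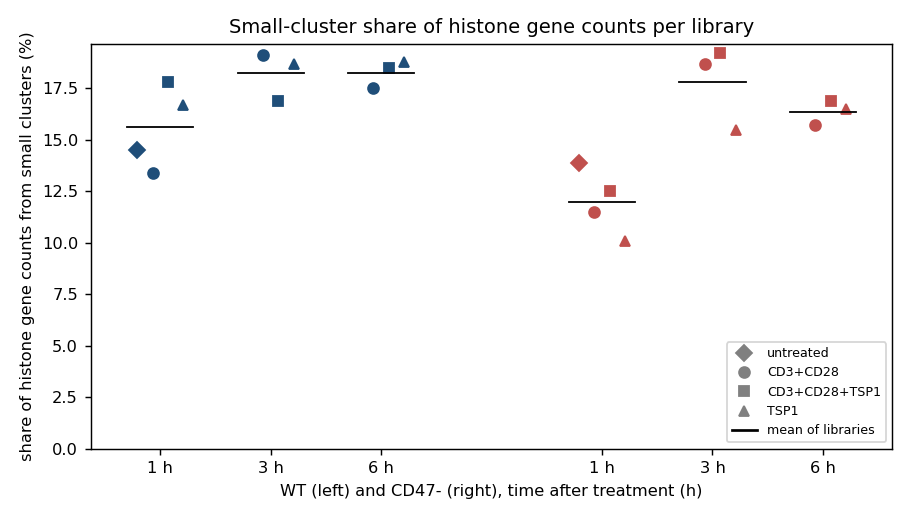
Share of histone CPM from the 11 small cluster genes, in percent, in each library against hours after plating, by line and treatment, with bars at the mean. The CD47- libraries lie at 10.1% to 13.9% at 1 h and 15.7% to 16.9% at 6 h.

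Libraries of 1 h were uneven among themselves in both lines, and the same libraries were high or low for a small Cajal body RNA that is no histone gene. SCARNA2 was at 78.6, 316, 224 and 87.6 CPM in the WT libraries at 1 h (CD3+CD28, CD3+CD28+TSP1, TSP1 and untreated) and at 39.4, 56.3, 13.6 and 139 CPM in the CD47- libraries. H3C13 was at 27.2, 110, 88.9 and 34.0 CPM and at 19.9, 22.8, 8.19 and 42.6 CPM in the same order. The CD3+CD28+TSP1 and TSP1 libraries were the higher ones in WT, and the untreated library was the highest in CD47- cells, as in the summed histone level. At 3 h against 1 h, SCARNA2 rose by 2.09 on the log2 scale in CD47- cells (adjusted p = 0.00287, edgeR) and its change in WT cells was -0.03 (adjusted p = 0.968). Of 15 entries tested for RNAs without a poly(A) tail, which hold RMRP under 2 identifiers, 0 rose and 5 fell at 3 h in WT, and 1 rose and 1 fell in CD47- cells. Of all genes tested, 16.9% rose and 17.4% fell at 3 h in WT, and 18% rose and 20.1% fell in CD47- cells. At 6 h, 0 of these entries rose and 7 fell in WT, and 6 rose and none fell in CD47- cells. The shares of all genes that rose and fell were 25.7% and 24.8% in WT and 26% and 27% in CD47- cells. The summed level of the 15 entries was 134743 to 212532 CPM in WT and 90409 to 186034 CPM in CD47- libraries. Between the lines 1 entry was higher and 5 were lower in CD47- cells over all conditions, where 19.8% of all genes were higher and 20.6% lower. The part of capture of RNA without a tail in the histone differences was not tested.

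The third comparison tested whether the change with time differed between the lines. At 3 h against 1 h the interaction of line and time was called for 5 of 62 genes, 2 higher and 3 lower in CD47- than in WT cells, where 2.02% and 2.25% of all genes were called higher and lower by edgeR. At 6 h it was called for 8 genes, 5 higher and 3 lower, where 6.46% and 10.2% of all genes were called. Among the 3 lower genes was H2BC3, whose change in CD47- cells rests on 7 to 21 counts per library. The 3 lower genes at 3 h were all H4 genes, H4C8, H4C5 and H4C4, and the 2 higher ones H3 genes, H3C12 and H3C8. Leaving out 1 library moved these counts between 0 and 15 at 3 h and between 2 and 18 at 6 h, and by more than 1.5 times for 14 and 11 of the 20 libraries. The 3 h count was 0 without the WT TSP1 library at 1 h and 15 without the WT CD3+CD28 library at 1 h, and the 6 h counts were 4 and 18. The lowest 6 h count, 2, was that without the WT CD3+CD28+TSP1 or the CD47- TSP1 library at 6 h. With no low-count filter the count was 28 at each time, 24 higher and 4 lower. Without treatment terms it was 3 at 3 h, all lower, and 5 at 6 h. How many of all genes were called in these other fits was not computed.

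H4C5 was among the genes called for the interaction at 3 h. In WT cells it was at 393, 354, 336 and 323 CPM at 1 h, at 565, 595 and 548 CPM at 3 h and at 444, 423 and 418 CPM at 6 h. In CD47- cells it was at 387, 414, 414 and 422 CPM at 1 h, at 466, 306 and 460 CPM at 3 h and at 449, 404 and 435 CPM at 6 h. All WT libraries of 3 h lay above those of 1 h, while in CD47- cells the CD3+CD28+TSP1 library at 3 h was the lowest of the 10. That library also had the lowest total, 16107921 counts, and the highest scaling factor, 1.2, as given above. H4C4, at 147 to 190 CPM at 1 h and 309 to 351 CPM at 3 h in WT cells, was at 214 to 245 CPM and 211 to 311 CPM in CD47- cells. H3C12 went the other way, from 139 to 219 CPM to 280 to 345 CPM in WT cells and from 85.2 to 118 CPM to 215 to 310 CPM in CD47- cells. The annotated span of H3C12 overlaps H2AC17 on the same strand, so reads in the overlap cannot be assigned to either gene with certainty. Across the 62 genes the interaction at 3 h and the GC content of the main transcript had a Spearman rho of 0.64, and at 6 h of 0.43, as a description over genes that share libraries and base composition. GC content ran from 44.1% to 62% in the large cluster, with a median of 56.2%, and from 47.7% to 65.3% in the small clusters, with a median of 60.9%. For the change at 3 h itself rho was -0.02 in WT and 0.52 in CD47- cells, and at 6 h -0.0 and 0.39. The part of GC content was not tested.

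The fourth comparison was of treatments within each line. No histone gene was called by edgeR's test for CD3+CD28+TSP1 against TSP1, CD3+CD28+TSP1 against CD3+CD28, or CD3+CD28 against untreated cells, in either line. Over all genes 0.0919% were called higher for CD3+CD28+TSP1 against TSP1 in WT, 0% were called lower, and 0% were called either way in the other 5 contrasts. With no low-count filter, edgeR called histone genes in each of these contrasts in both lines. For CD3+CD28+TSP1 against TSP1 these were 1 in WT and 6 in CD47- cells, and against CD3+CD28 they were 5 and 4. The contrast with untreated cells is given in the closing section. The share of all genes called without the filter was not computed, so these counts are not read as a treatment effect on histone genes. With the filter, at an unadjusted p under 0.05, CD3+CD28+TSP1 against TSP1 gave 1 of 62 histone genes in WT and 5 in CD47- cells. Of all genes, 5% and 16.1% had such a p. CD3+CD28+TSP1 against CD3+CD28 gave 0 and 4 histone genes (all genes 2.24% and 10.8%), and CD3+CD28 against untreated gave 3 and 10 (all genes 8.32% and 4.02%). DESeq2 called 1 gene, for CD3+CD28 against untreated cells in WT, and 0 in the other contrasts. The untreated cells were 1 library per line, which the model fits exactly, so this contrast assumes that they vary like the other conditions. Its median fitted log2 difference was 0.19 in WT and -0.35 in CD47- cells. The fitted CD3+CD28 level draws on the libraries of 3 h and 6 h too. The WT value goes against the summed level of the 1 h libraries themselves, which was 11578 CPM with CD3+CD28 and 12009 CPM untreated.

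The genes that make and process histone mRNA are given beside the shares of all genes that rose and fell, which were 16.9% and 17.4% at 3 h and 25.7% and 24.8% at 6 h in WT, and 18% and 20.1% at 3 h and 26% and 27% at 6 h in CD47- cells. Of 22 genes of histone mRNA transcription, 3′ processing and decay, 4 rose and 5 fell at 3 h in WT and 2 rose and 6 fell in CD47- cells. At 6 h, 10 rose and 8 fell in WT and 9 rose and 8 fell in CD47- cells. SLBP, which binds the stem-loop, fell at 3 h in WT (log2 change -0.33, adjusted p = 0.0414, edgeR), had a change of -0.21 in CD47- cells (adjusted p = 0.167), and fell at 6 h by 0.52 and 0.39 on the log2 scale. NPAT, the histone transcription coactivator, fell at 6 h by 0.44 in WT and 0.42 in CD47- cells and was lower in CD47- than in WT cells (log2 difference -0.44, adjusted p = 0.00102, edgeR). CASP8AP2 fell at 6 h by 0.50 and 0.58, and its difference between the lines was -0.16 (adjusted p = 0.32). Between the lines 4 of the 22 genes were higher, among them ZNF473, which acts in the U7-dependent cut (log2 difference 0.61, adjusted p = 9.13e-06, edgeR), and 4 lower, where 19.8% of all genes were higher and 20.6% lower.

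Most S phase genes fell while histone genes rose. Of 19 S phase genes, 10 fell and none rose at 3 h in WT, and 12 fell and 1, CCNE2, rose in CD47- cells. At 6 h all 19 fell in WT and 13 fell in CD47- cells. Their summed level was 3541 to 3790 CPM at 1 h, 3164 to 3219 CPM at 3 h and 2550 to 2618 CPM at 6 h in WT cells. In CD47- cells it was 2818 to 2896, 2121 to 2539 and 2094 to 2121 CPM, below WT at each time. Between the lines 11 of 19 were lower in CD47- cells and none higher, with PCNA, the replication clamp, at a log2 difference of -0.49 (adjusted p = 0.00115, edgeR). Of 13 histone chaperones and acetylase genes, 2 rose and 3 fell at 3 h in WT, 1 rose and 8 fell in CD47- cells, and at 6 h 1 rose and 7 fell in WT and 1 rose and 10 fell in CD47- cells. NASP, which carries H3 and H4, fell at 6 h by 0.80 and 0.88 on the log2 scale in WT and CD47- cells. HIRA, which places the H3.3 variant independently of replication, rose by 0.79 and 0.94.

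Histone genes that are also made outside S phase were counted in the same way, beside the shares of all genes given above for these contrasts. Of 10 replication-independent genes tested, 2 rose and 1 fell at 3 h in WT and 1 rose and 6 fell in CD47- cells, and at 6 h 2 rose and 4 fell in WT and 0 rose and 7 fell in CD47- cells. Between the lines 2 were higher and 3 lower. H2AX, whose mRNA can end in a stem-loop or a poly(A) tail, rose at 3 h in CD47- cells by 1.24 (adjusted p = 0.00344, edgeR), with 0.42 in WT cells (adjusted p = 0.265).

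Neighboring genes that are not histone genes were compared for position alone. Of 13 tested genes in or beside the large cluster that do not encode histones, 1 rose and 6 fell at 3 h in WT (all genes 16.9% and 17.4%) and 1 rose and 8 fell in CD47- cells (18% and 20.1%). They were listed by name, and their positions were not checked against the ends of the cluster. Their summed level fell from 534 to 589 CPM at 1 h to 434 to 442 CPM at 6 h in WT, and from 617 to 643 CPM to 397 to 417 CPM in CD47- cells. Between the lines 2 were higher and 1 lower over all conditions (all genes 19.8% and 20.6%). At 1 h, 7 were higher and 1 lower in CD47- cells (all genes 22.2% and 20.8%), with a median log2 difference of 0.25. H2AW, a histone gene of a small cluster that the naming rule did not cover, rose at 3 h in CD47- cells by 2.88 on the log2 scale (adjusted p = 0.000913, edgeR), with 1.19 in WT cells (adjusted p = 0.0838).

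Several small cluster and H4 genes have coding sequences identical to a copy, and the expected counts divide shared reads between them. The 4 pairs were H2AC18 with H2AC19, H3C14 with H3C15, H4C11 with H4C12 and H4C14 with H4C15, and values of single members are uncertain. H2AC19 ranged from 62.9 to 619 CPM in WT and 29.9 to 770 CPM in CD47- libraries, and H3C14 was at 0 in the untreated WT library and reached 272 CPM in another WT library. Summed, H2AC18 and H2AC19 had a log2 difference of -0.57 between the lines (adjusted p = 0.107, edgeR), where H2AC18 alone was called. H3C14 and H3C15 had -0.32 (adjusted p = 0.498), H4C11 and H4C12 -0.05 (adjusted p = 0.861) and H4C14 and H4C15 -0.43 (adjusted p = 0.168). At 1 h alone, over the treated conditions, 3 of the 4 sums were lower in CD47- cells by edgeR, with log2 differences of -1.14 for H2AC18 and H2AC19 (adjusted p = 0.0025), -1.36 for H3C14 and H3C15 (adjusted p = 0.00355) and -0.86 for H4C14 and H4C15 (adjusted p = 0.000978). In the untreated pair these 3 sums were higher in CD47- than in WT cells, at 523 and 481 CPM, 300 and 191 CPM, and 376 and 325 CPM. At 3 h only the sum of H4C14 and H4C15 was lower (-0.57, adjusted p = 0.0123), and at 6 h none of the 4 passed. At 3 h all 4 sums rose in both lines, by 0.81 to 1.11 on the log2 scale in WT and 1.16 to 2.34 in CD47- cells.

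Isoforms were compared between the lines in the transcript table, where 12 histone genes had more than 1 annotated transcript. Of 88 histone isoforms 71 were tested, and 17 were lower and 1 higher in CD47- cells by edgeR's test. Over all 55450 isoforms tested, 7.55% were called lower and 7.51% higher. H2BC18 was split between ENST00000369167.2 (53.5% ± 11.9 in WT and 47% ± 14.8 in CD47- cells, SD, n = 10 libraries) and ENST00000545683.1 (46.5% ± 11.9 and 52.9% ± 14.9). The shares overlapped between the lines.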

How the data were processed

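RNA sequencing of 20 libraries (TruSeq mRNA kit, paired reads) was processed by the authors, who per the submitters' processing notes trimmed with cutadapt 1.18, aligned with STAR 2.4.2a to GRCh38/hg38 and quantified with RSEM 1.3.3. The deposited values are RSEM expected counts per gene and isoform, without normalization. The authors later corrected for a batch that is not named in the sources used here. The 2 columns per table of another cell line were not used. Expected counts were rounded and tested with edgeR 4.0.16 in R 4.3.3: filterByExpr (minimum count 10, total 15), TMM scaling, quasi-likelihood test and Benjamini-Hochberg adjustment over 16327 genes. CPM are TMM-scaled. The lines were compared over 20 libraries. Time, line at a time, interaction and treatment came from 1 model with 12 coefficients and 8 residual degrees of freedom. Within a line at most 1.79% of counts were identical between libraries. Library numbers given in accession order were not used for pairing. Pairs of the same treatment and time deviated together (correlation 0.115 to 0.452 in 10 of 10 pairs). Sequences came from GRCh38 and RefSeq, with 63 genes found by identifier and 2 by symbol. The genes printed were those with the highest levels, the largest line differences and their neighbors, the smallest p in each time contrast, H1-1 to H1-6 and identical copies. Genes such as H4C5, H4C6, H2AC20, H2BC18 and H2BC21 and the genes outside the rule were named after their values were seen. The members and lists were chosen with earlier results of these data known. Some genes of the lists are not reported here. Scripts were tested on simulated data. DESeq2 1.42.0 and other alternatives are given in the closing section.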

Additional observations from a re-analysis of the deposited data

Results flagged for a closer look

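Of 148 groups of 4 to 10 libraries looked at for a library far from the others, 2 held one, where chance alone marks about 1 in 20. H1-3 in the CD47- libraries at 1 h was at 526 CPM in the untreated library, and the next was at 485 CPM. H4C5 was at 306 CPM in the CD47- CD3+CD28+TSP1 library at 3 h, and the nearest of the other 9 CD47- libraries was at 387 CPM.

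The change with time differed between the lines by the interaction test of edgeR for these genes, given as CD47- minus WT on the log2 scale. At 3 h against 1 h it was -0.73 for H4C8 (0.97 in WT and 0.24 in CD47- cells), -0.66 for H4C5 (0.66 and -0.00094) and -0.64 for H4C4 (0.88 and 0.24). It was 0.72 for H3C12 (0.77 and 1.49) and 0.84 for H3C8 (0.39 and 1.22). At 6 h against 1 h it was -1.47 for H1-6 (1.37 and -0.10), which had a few CPM in each library, and -1.38 for H2BC3 (0.79 and -0.59), whose CD47- levels were below 1 CPM. The CD47- change of H2BC3 rests on 7 to 21 counts per library, and its value is not read as a different time course. It was -0.51 for H4C4 (0.59 and 0.08), 0.61 for H2BC11 (-0.33 and 0.27), 0.69 for H3C8 (-0.17 and 0.53) and 0.75 for H2AC6 (0.11 and 0.86). It was 0.80 for H3C12 (0.13 and 0.94) and 1.08 for H2AC15 (0.21 and 1.28). Both counts of such genes moved by more than 1.5 times when single libraries were left out, as given in the report.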

How the results depend on the processing

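For counts of genes called and shares, 493 alternative values stayed within 1.5 times or 1 SD and 61 moved further. For single named genes, 507 kept their direction and call, 7 kept their direction and missed the threshold, and none reversed. Where counts moved, the cause was not tested. Except for the replicate block, shares of all genes called were not computed for these alternatives. Their counts show how far the histone counts moved and are not set against a background. With the replicate block of 10 pairs the line comparison gave 46 genes, with time as a factor 47, in the 6 activated pairs 16 and in the 4 unactivated pairs 7, where H2AC4, H2BC8, H2BC1 and H1-6 did not pass. H1-6, the only gene called higher, also missed the threshold in the 6 activated pairs and without CD3+CD28 libraries, and H2BC1 without CD3+CD28+TSP1 libraries. In fits chosen after seeing the data, without treatment terms the interactions gave 3 (3 h, 0 higher and 3 lower) and 5 (6 h, 2 higher and 3 lower). The 3 h interactions of H3C12 and H3C8 were thus not called there. In the same way, without libraries given TSP1, 6 h in CD47- gave 19, the line comparison 25, 23 and 13 at 1, 3 and 6 h, and the interactions 0 and 0, without CD3+CD28 libraries, 3 h and 6 h in WT gave 33 and 15 and the interactions 0 and 4, and without CD3+CD28+TSP1 libraries, the line comparison gave 16, 6 h in WT 43 and the 6 h interaction 15. In fits fixed earlier, with 1 time effect for both lines 6 h gave 48. DESeq2 gave 8 for the 3 h interaction and 1 for CD3+CD28 against untreated in WT. With no low-count filter 6 h in WT gave 40, the interactions 28 and 28, CD3+CD28+TSP1 against TSP1 1 (WT) and 6 (CD47-), against CD3+CD28 5 and 4, and CD3+CD28 against untreated 3 and 23. Leaving out 1 library gave 20 to 34 for the lines, 39 to 59 and 15 to 32 for 3 h and 6 h in WT, 49 to 57 and 34 to 50 in CD47-, 38 to 54, 26 to 42 and 17 to 35 for the lines at 1, 3 and 6 h, 0 to 15 and 2 to 18 for the interactions, 0 to 1 for CD3+CD28 against untreated in WT, 0 for the other treatment contrasts and 17 to 21 for isoforms. Share differences ran from -2.6 to -1.59, 1.96 to 3.42 and 3.78 to 5.02 points. A level below 0.0979 to 0.1556 CPM rests on fewer than 3 counts, which limits H1-1, H2AC1, H3C6 and H2BC1.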
